A study of Zea mays with 24 samples.

Results

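Severe drought was compared with moderate drought in seedlings of the maize inbred line Ye478. The comparison used 6 of the 24 arrays of the series, the 3 titled severe drought and the 3 titled moderate drought in this line, and they were chosen by title without any measured value. Total RNA from the shoots of seedlings at the 3-leaf stage was labelled with biotin and hybridised to an Affymetrix maize genome array. The remaining arrays hold watered and re-watered Ye478 plants and the same 4 conditions in a second inbred line, Han21, with 3 arrays in each of the 8 groups. Both compared groups had been deprived of water, so the comparison describes what was added between the milder and the harsher drought, not the response to drought as such. The labels give neither the soil water nor the days of treatment, and the tissue is labelled shoot, although mesocotyls are mentioned in the extraction protocol. The arrays are titled as biological replicates, whereas the series text speaks of 2 independent experiments. It is not stated that the replicates came from separate plantings, so the p-values measure the spread between these samples.

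A plant that loses water makes abscisic acid, which closes the stomata and switches on genes for proteins that protect drying cells. Many of these proteins, among them dehydrins, oleosins and seed storage globulins, are best known from maturing seeds. Growth by cell expansion, with its supply of cellulose, tubulin and wall-loosening proteins, and photosynthesis are commonly reduced.

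Values are signal intensities in the units of the array software, scaled by the authors to a common mean on every array, and changes are log2 fold changes of severe over moderate drought with their standard errors. A probe set was called when its adjusted p from limma, fitted to all 24 arrays, was below 0.05, and rose and fell are used only of such calls. The test covered 12111 of 17621 gene probe sets, those bright enough on at least 3 arrays. A level cannot be compared between probe sets of different genes. In whole shoots, fewer cells of a type and less RNA per cell cannot be told apart. In each of the 8 groups replicate 1 lay apart from the other replicates. On the leading principal component of each array's departure from its group mean, the 8 arrays numbered 1 scored between -26.9 and -22.6 and the others between 5.7 and 20.3. Counts are therefore also given with each replicate number left out of every group. Arrays within a group correlated at r = 0.957 to 0.982 in severe drought and 0.948 to 0.975 in moderate drought, across the 8810 brighter probe sets. Marker genes were read for green tissue, seed and root but not for the mesocotyl, so its share in the samples was not tested. The means of 14 of 15 genes of the photosynthetic light reactions in severe drought lay above 72.6 units, the lowest of the arrays' filter levels, and those of 9 of 9 endosperm storage genes and of the root marker nas1 lay below it. Of 7 control pairs meant to report RNA integrity by their 3′ to 5′ ratio, 4 had a lower mean in severe drought. The groups overlapped in every pair. The first GAPDH pair had signals down to 1.37 units in severe and 0.956 units in moderate drought. In the second actin pair they went down to 8.54 and 6.76 units. At such signals a ratio cannot report integrity, and both pairs had a higher mean in severe drought. Of the other pairs, only elongation factor 1-alpha had a higher mean there. The 4 lower pairs were the first actin, cyclophilin, second GAPDH and ubiquitin pairs.

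Between moderate and severe drought, 2891 of 12111 tested probe sets were called (23.9%). Of these, 1219 rose (10.1%) and 1672 fell (13.8%). A change of at least 2-fold was reached by 696 of the called probe sets (5.75%), 256 that rose (2.11%) and 440 that fell (3.63%). The arrays of the groups did not overlap for 2077 probe sets higher (17.1%) and 2422 lower (20.0%) in severe drought. The median log2 fold change over all tested probe sets was -0.02, so the centre of the arrays hardly moved. Quantile normalization or median centring moved that median by 0.01 and -0.01. Without replicate 1 of every group, 763 probe sets rose and 1212 fell, and 1816 of the 2891 were called in the same direction. Without replicate 2 the counts were 382 and 626, and without replicate 3 they were 895 and 1107. The main fit did not pair arrays by replicate number. With replicate numbers as a block, 4048 probe sets were called, of which 1773 rose and 2275 fell. Of the 115 called genes and probe sets named here, 20 lost their call without replicate 1, 46 without replicate 2 and 23 without replicate 3. Among the 766 tested genes with an informative name, 96 rose, 153 fell and 517 were not called. These genes are a small part of the array, since 16168 of its probe sets carry no gene name. The plot of change against signal shows the called probe sets on both sides of zero, with the 15 largest rises and falls of named genes ringed.

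**Figure D1:**
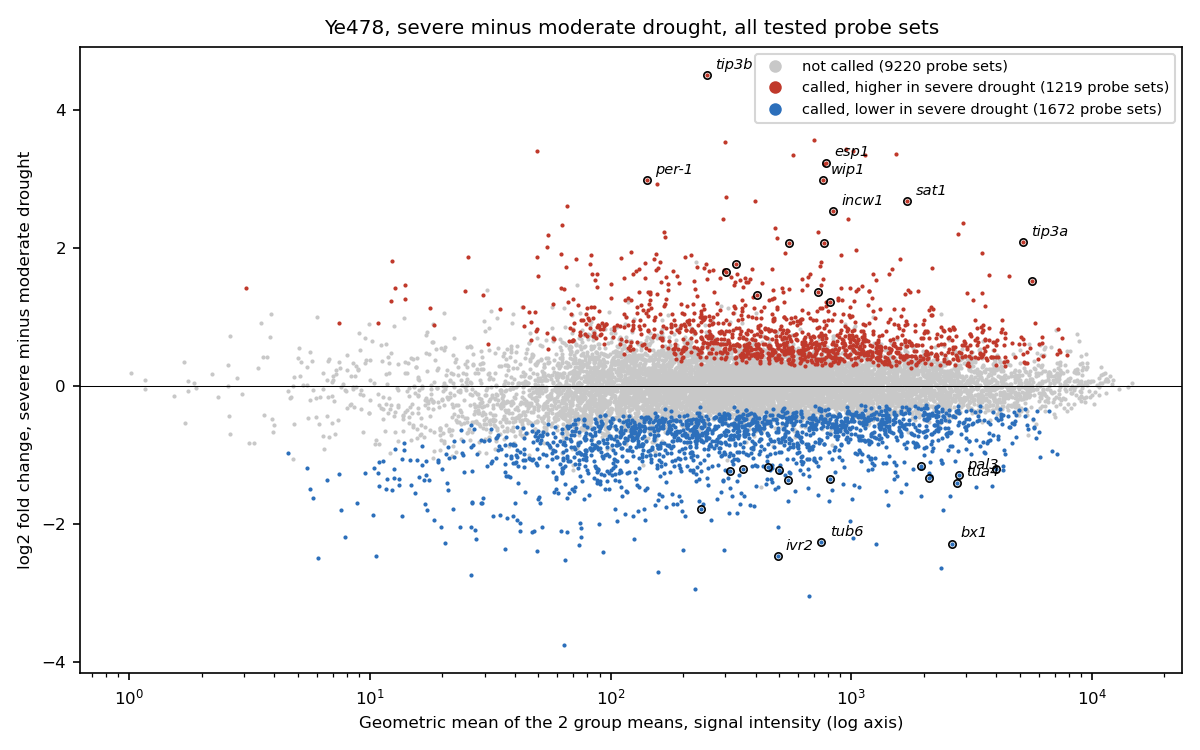
Log2 fold change of severe over moderate drought in Ye478 (y axis) against the geometric mean of both group means in signal units (x axis, log scale) for each of the 12111 tested probe sets. The 1219 called rises lie above zero and the 1672 called falls below it, and named points are among the 15 largest rises and falls of named genes, with tip3b highest at 4.49 and ivr2 lowest among the named genes at -2.47.

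Several of the steepest rises among named genes belonged to proteins of the maturing seed. Of 9 such genes on the array, 6 were bright enough to be tested and rose (6 of 6, median 2.66), with glb1 at the lower end and tip3b at the upper end. Of these, ole1, per-1 and tip3b passed the brightness filter only through the severe-drought arrays, so a rise was built into their being tested and the count is no support for the group. The untested genes were glb2, glb3 and vp1, the last a regulator of seed maturation. tip3b encodes a tonoplast intrinsic protein, a water channel of the vacuole membrane typical of seeds, and its probe set gave 1248, 859.9 and 1547 units under severe drought, against 73.0, 26.4 and 56.5 units under moderate drought. Every severe-drought array was far above every moderate-drought array, and the moderate-drought mean of 52.0 units was under 72.6 units, so the size of its change (4.49 ± 0.34, adjusted p = 2.93e-08) depends on the constant that was added before log2. Its relative tip3a was already bright, with 11426, 11325 and 8546 units under severe drought, against 3201, 1684 and 2726 units under moderate drought (2.08 ± 0.54, adjusted p = 0.00806). The groups did not overlap, and the lowest severe-drought value was more than double the highest moderate-drought one. per-1, which encodes the 1-Cys peroxiredoxin of seeds, gave 578, 291 and 392.2 units under severe drought, against 53.2, 37.4 and 52.3 units under moderate drought (2.98 ± 0.32, adjusted p = 1.68e-06).

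Storage and oil body genes were among these rises. glb1, for a globulin storage protein of the embryo, gave 1638, 1282 and 1796 units under severe drought, against 447, 279.6 and 396 units under moderate drought (2.07 ± 0.47, adjusted p = 0.00291). All severe-drought arrays were above 1000 units and all moderate-drought arrays below 500, yet with no constant added the adjusted p was 0.0605. ole1, for an oleosin that coats oil bodies, gave 142, 121 and 168 units under severe drought, against 36.0, 35.8 and 10.7 units under moderate drought (2.33 ± 0.39, adjusted p = 0.000203), so its rise started from signals under the filter level. esp1, another gene grouped here by its symbol, had 2129.6, 2209 and 2277 units under severe drought, against 504, 108 and 223 units under moderate drought (3.23 ± 0.58, adjusted p = 0.000394). Its severe-drought arrays agreed closely, whereas the moderate-drought arrays were widely scattered without reaching them. Zein genes, which belong to the endosperm, did not accompany these genes. The 9 endosperm storage genes summed to 80.5 to 113.5 units per array in severe drought and 65.7 to 123.8 units in moderate drought, with 0 of their group means above the filter level. Without replicate 1, 6 of the 6 seed maturation genes rose, and without replicate 2, which set tip3a at an adjusted p of 0.174, 5 did. All 6 rose without replicate 3. These counts include ole1, per-1 and tip3b, whose rise was built into their being tested, so they too are no support for the group. Of the other genes, glb1 and esp1 rose in each of these fits, and tip3a rose without replicate 1 and without replicate 3.

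**Figure D2:**
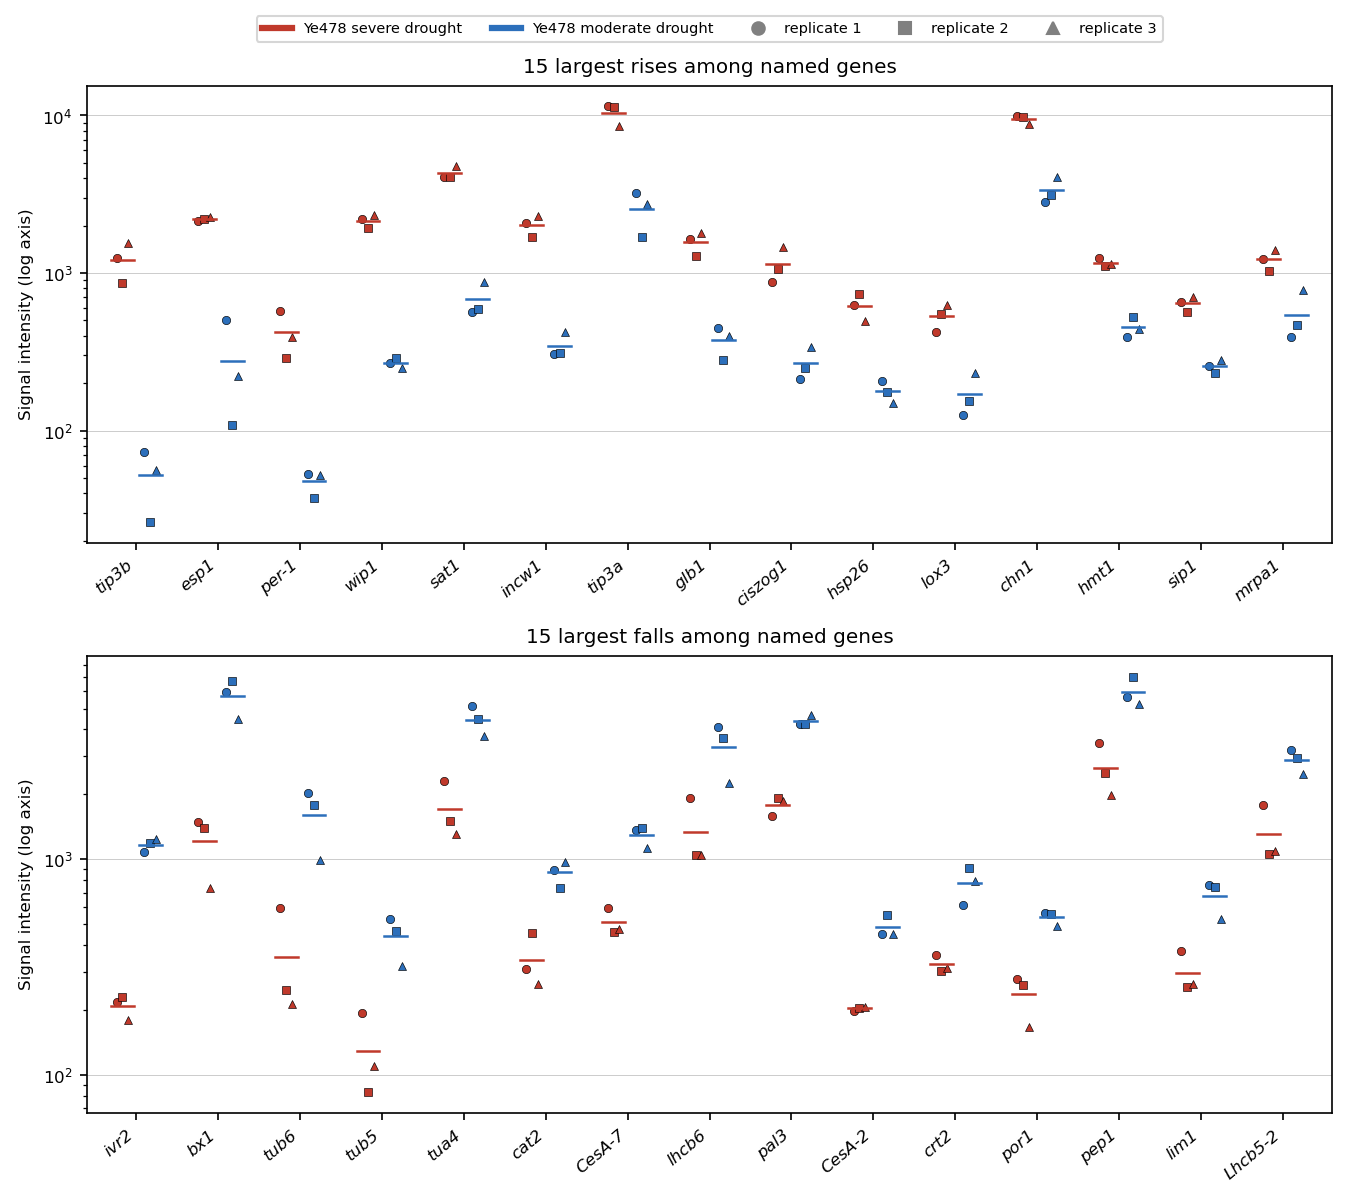
Signal intensity (y axis, log scale) of the 15 named genes with the largest rises (top) and the 15 with the largest falls (bottom), 3 severe-drought arrays in red to the left of 3 moderate-drought arrays in blue, with symbols for the replicate number and a bar at the group mean. By the rule that chose these genes, no severe-drought array overlaps a moderate-drought array, and tip3b shows the widest gap.

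Dehydrins and other late embryogenesis abundant proteins bind water and shield membranes and proteins. Of 5 genes for them, 2 rose and 0 fell, against 10.1% and 13.8% over all tested probe sets (median 0.61, against -0.02). The rises numbered 1, 2 and 1 without replicate 1, 2 and 3 in turn. These counts and the median include esp5, whose rise was built into its being tested, so they are no support for the group. esp5, an embryo gene of this family, gave 160.5, 187 and 155 units under severe drought, against 42.1, 16.3 and 18.7 units under moderate drought (2.60 ± 0.48, adjusted p = 0.000499), and it too passed the filter only through the severe-drought arrays. dhn2 gave 7483, 7591 and 7228 units under severe drought, against 5172, 4908 and 4559 units under moderate drought (0.61 ± 0.18, adjusted p = 0.0146), a modest shift with tight groups. Its adjusted p without replicate 1 was 0.0943, and its call was also lost without replicate 3. dhn1 gave 15084, 18414 and 9175 units under severe drought, against 15362, 17003 and 10009.6 units under moderate drought (-0.01 ± 0.60, not called). It ranked 1, 2 and 35 in brightness on the severe-drought arrays and 1, 2 and 7 on the moderate-drought arrays, and the part of saturation in its values was not tested. mlg3 lay at 10862, 12850.5 and 9948 units under severe drought, against 7126, 6405 and 6424 units under moderate drought, and although its groups did not overlap it was not called (0.75 ± 0.57, adjusted p = 0.38). Fitted to the compared groups alone, its adjusted p was 0.00546.

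Aquaporins are the water channels of membranes. Of 25 tested aquaporin genes, 2 rose (tip3a and tip3b) and 4 fell, with a median of -0.11. The rise of tip3b was built into its being tested. The 6 calls among 25 genes are close to the 23.9% over all tested probe sets. nip1a, of the nodulin-26-like subfamily, gave 578, 416 and 456 units under severe drought, against 1097, 981 and 966 units under moderate drought (-1.07 ± 0.16, adjusted p = 4.87e-05), a clean separation of the groups. Lsi1, a silicon channel, had 172, 277 and 159 units under severe drought, against 427, 449 and 302 units under moderate drought (-0.96 ± 0.29, adjusted p = 0.018), with every severe-drought array below every moderate-drought one. The falls of Lsi6, another silicon channel (-0.78 ± 0.27), and of tip4a, a tonoplast channel (-0.78 ± 0.27), were shallow. The call of Lsi1 was lost with severe replicates 1 and 3 or moderate replicates 1 and 2 left out in turn, adjusted p = 0.0625 to 0.0867. That of Lsi6 was lost with severe replicates 1 and 2 or moderate replicates 1 and 3 left out in turn, adjusted p = 0.101 to 0.129, and that of tip4a with severe replicates 1 and 2 or moderate replicates 1 and 3 left out in turn, adjusted p = 0.0569 to 0.25. The plasma membrane channels ZmPIP1-1 and ZmPIP2-1 were not called, with ZmPIP1-1 at 9916, 10222 and 9302 units under severe drought, against 9044, 8701 and 7431 units under moderate drought (0.23 ± 0.12) and ZmPIP2-1 at -0.11 ± 0.11. With replicate numbers as a block, the adjusted p of ZmPIP1-1 was 0.036. The aquaporin genes gave 2, 1 and 2 rises and 1, 1 and 3 falls without replicate 1, 2 and 3 in turn.

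Sugar metabolism split by enzyme. Of 14 tested genes of sucrose and starch metabolism, 3 rose and 7 fell (median -0.52), against 10.1% and 13.8% over all tested probe sets. Invertases cleave sucrose, and those of the cell wall and the vacuole went opposite ways. The cell wall invertase gene incw1 gave 2064, 1685 and 2316 units under severe drought, against 308, 309.8 and 422 units under moderate drought (2.53 ± 0.21, adjusted p = 1.01e-07). The vacuolar invertase gene ivr2 gave 217, 229 and 179.7 units under severe drought, against 1084, 1184 and 1241 units under moderate drought (-2.47 ± 0.16, adjusted p = 6.22e-09). In both genes the groups were several-fold apart with little scatter among replicates. The other rises were in sucrose synthases, which cleave sucrose with UDP. sus2 averaged 5056 ± 463 units under severe drought, against 3203 ± 572 units under moderate drought (SD, n = 3 each; 0.67 ± 0.17, adjusted p = 0.00722), and sh1 averaged 9133 ± 639.7 units under severe drought, against 6736 ± 468 units under moderate drought (SD, n = 3 each; 0.44 ± 0.12, adjusted p = 0.0112). Another sucrose synthase gene, sus1, was not called (-0.59 ± 0.27), but its adjusted p was 0.00516 with replicate numbers as a block and 0.0338 without severe replicate 1. The call of sh1 was lost without severe replicate 1 (adjusted p = 0.0507) and without replicate 1 of every group (adjusted p = 0.124).

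Some genes on the way to sucrose and starch fell. sps1, for the sucrose phosphate synthase that makes sucrose, had 367, 327 and 287 units under severe drought, against 599.8, 697 and 647 units under moderate drought (-0.98 ± 0.21, adjusted p = 0.0017). GLG1, for a subunit of the ADP-glucose pyrophosphorylase that opens starch synthesis, had 1052, 837 and 726 units under severe drought, against 2099.9, 1672 and 1607 units under moderate drought (-1.04 ± 0.14, adjusted p = 2.18e-05). In both genes every severe-drought array was below every moderate-drought one. A further subunit gene of that enzyme, bt2, changed by -0.72 ± 0.24, a call lost with severe replicates 1 and 3 or moderate replicates 2 and 3 left out in turn, adjusted p = 0.0746 to 0.1. The starch synthase genes GBSSIIa (-1.04 ± 0.23) and gss1 (-0.73 ± 0.16) and the pullulanase-type debranching gene zpu1 (-0.44 ± 0.14) completed the falls. Other genes of starch synthesis were not called, ss1 (-0.08 ± 0.16), sbe1 (-0.02 ± 0.19) and Agpsemzm (-0.29 ± 0.18). The adjusted p without replicate 2 was 0.15 for sus2 and 0.156 for GBSSIIa. The adjusted p of gss1 was 0.0538 without replicate 1. The call of zpu1 was lost with severe replicate 3 or moderate replicates 1, 2 and 3 left out in turn, adjusted p = 0.0655 to 0.154. The sugar list gave 2, 1 and 3 rises and 5, 4 and 5 falls without replicate 1, 2 and 3 in turn.

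Several genes for heat shock proteins, chaperones that hold unfolded proteins, rose under severe drought. Of 13 genes for heat shock proteins and chaperones, 5 rose and 3 fell, against 10.1% and 13.8% over all tested probe sets. The median stood at 0.17. hsp26, a small heat shock protein of the chloroplast, gave 625, 735 and 494 units under severe drought, against 205, 176 and 150.3 units under moderate drought (1.77 ± 0.30, adjusted p = 0.000204). hsp22, of the mitochondrion, had 279, 415 and 411 units under severe drought, against 174, 194 and 167 units under moderate drought (1.01 ± 0.20, adjusted p = 0.000786). hsp101, a chaperone that unpicks aggregates, had 279, 529 and 469 units under severe drought, against 206, 172 and 191 units under moderate drought (1.10 ± 0.21, adjusted p = 0.000643). In these genes every severe-drought array was higher, with replicate 1 of hsp22 and hsp101 the lowest of its group. The cytosolic small heat shock genes hsp18a (0.81 ± 0.26) and hsp18f (0.73 ± 0.25) rose less. Their calls were lost with severe replicate 2 or moderate replicates 2 and 3 left out in turn, adjusted p = 0.0811 to 0.157 for hsp18a, and with severe replicates 1, 2 and 3 or moderate replicates 2 and 3 left out in turn, adjusted p = 0.0656 to 0.172 for hsp18f. The call of hsp18f was also lost with quantile normalization and with median centring.

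The falls were in chaperones of the endoplasmic reticulum and the mitochondrion. crt2, for calreticulin, which folds glycoproteins, gave 360.5, 304 and 311 units under severe drought, against 616, 911 and 793 units under moderate drought (-1.22 ± 0.23, adjusted p = 0.000641). bip1, for the lumenal Hsp70, averaged 350.3 ± 7.52 units under severe drought, against 599 ± 33.5 units under moderate drought (SD, n = 3 each; -0.76 ± 0.19, adjusted p = 0.00473). HSP60-1, a chaperonin gene, changed by -0.86 ± 0.19, adjusted p = 0.00257. The groups of these 3 genes were separate. hsp70-4, of the Hsp70 family, was not called (-0.16 ± 0.12). hsp18c, which passed the brightness filter only through the severe-drought arrays, was not called (0.58 ± 0.26). The chaperone list gave 5, 2 and 3 rises and 3, 2 and 2 falls without replicate 1, 2 and 3 in turn.

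Catalases, which break down hydrogen peroxide, diverged. Of 10 genes for antioxidant enzymes and metal-binding proteins, 4 rose and 2 fell (median 0.14), against 10.1% and 13.8% over all tested probe sets. There were 4, 2 and 2 rises and 2, 1 and 2 falls without replicate 1, 2 and 3 in turn. cat1 gave 9121, 8982 and 8110.1 units under severe drought, against 5706, 6397 and 6189.8 units under moderate drought (0.52 ± 0.11, adjusted p = 0.00216). Against this, cat2 gave 308, 455 and 262 units under severe drought, against 895, 737 and 971 units under moderate drought (-1.36 ± 0.20, adjusted p = 6.63e-05), and CAT3 gave 3674, 3037 and 2647 units under severe drought, against 5723, 5268 and 4841 units under moderate drought (-0.77 ± 0.17, adjusted p = 0.0025). No array of one group reached into the other for any of the 3 catalases. Ferritin, which stores iron, rose through both measured genes, fer1 (0.66 ± 0.12, adjusted p = 0.000339) and fer2 (0.59 ± 0.14, adjusted p = 0.00402). mtl2, for a metallothionein-like protein, averaged 2273 ± 306 units under severe drought, against 1141 ± 275 units under moderate drought (SD, n = 3 each; 1.01 ± 0.28, adjusted p = 0.0106), although its probe set may also read relatives. Without replicate 2 the adjusted p was 0.115 for fer2, 0.137 for mtl2 and 0.0586 for CAT3, and without replicate 3 it was 0.0685 for fer2 and 0.112 for mtl2. The superoxide dismutase gene sod3 and the ascorbate peroxidase gene apx2 were not called (0.05 ± 0.12 and -0.08 ± 0.12).

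Glutathione S-transferases, which couple glutathione to reactive compounds, mostly fell where they moved. Of 28 tested genes 2 rose and 7 fell (median -0.32), against 10.1% and 13.8% over all tested probe sets. gst30 gave 75.3, 59.999 and 66.1 units under severe drought, against 299, 246 and 205 units under moderate drought (-1.82 ± 0.28, adjusted p = 8.23e-05). gst23 gave 728, 728 and 729 units under severe drought, against 297, 359 and 334 units under moderate drought (1.14 ± 0.18, adjusted p = 9.79e-05), with nearly identical severe-drought arrays. The other rise, gst5, was smaller (0.68 ± 0.22, adjusted p = 0.03) and lost its call with severe replicates 1 and 3 or moderate replicates 2 and 3 left out in turn, adjusted p = 0.0753 to 0.105. gst11 (-0.98 ± 0.19) and GST38 (-0.89 ± 0.21) were among the falls, and the bright gst1 was not called (0.01 ± 0.17). The family gave 2, 1 and 1 rises and 5, 3 and 9 falls without replicate 1, 2 and 3 in turn.

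Most genes of cellulose synthesis fell. Cellulose synthases spin cellulose at the plasma membrane, and COBRA-like proteins help to order it. Of 14 tested genes of this kind 11 fell and 0 rose, with a median of -1.08 against -0.02 over all tested probe sets, where 13.8% fell. All 11 were called in each of the 6 fits that left out 1 of the 6 arrays, and 11, 9 and 11 fell without replicate 1, 2 and 3 in turn. CesA-7 gave 593, 459 and 474 units under severe drought, against 1372, 1396 and 1124 units under moderate drought (-1.34 ± 0.13, adjusted p = 7.49e-07). CesA-2 gave 198, 204 and 207 units under severe drought, against 452, 553 and 449 units under moderate drought (-1.23 ± 0.15, adjusted p = 8.31e-06). The severe-drought arrays of CesA-2 were almost equal and all below 210 units. Genes of the secondary wall, which stiffens grown cells, fell as well. cesa10 gave 23.6, 21.2 and 17.7 units under severe drought, against 105, 126 and 88.1 units under moderate drought (-2.12 ± 0.21, adjusted p = 8.76e-07), and bk2, a COBRA-like gene needed for stalk strength, gave 29.5, 32.0 and 36.8 units under severe drought, against 112, 99.9 and 98.9 units under moderate drought (-1.54 ± 0.19, adjusted p = 8.31e-06). Their severe-drought means are under the filter level, so these folds depend on the constant. The exceptions were CesA-3 (-0.01 ± 0.21), CesA-5 (-0.06 ± 0.13) and CesA-6 (-0.24 ± 0.12), which were not called.

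Tubulins, which form the microtubules that guide cellulose deposition, fell in part. Of 15 tubulin and actin-binding genes 6 fell and 0 rose (median -0.24), against 13.8% and 10.1% over all tested probe sets. tub6, a β-tubulin gene, gave 595, 248 and 212 units under severe drought, against 2033, 1776 and 991 units under moderate drought (-2.26 ± 0.32, adjusted p = 4.06e-05). tub5 gave 193, 83.0 and 109.5 units under severe drought, against 530.0, 466 and 319.8 units under moderate drought (-1.79 ± 0.25, adjusted p = 3.66e-05), and tub3 averaged 339 ± 79.4 units under severe drought, against 761 ± 221 units under moderate drought (SD, n = 3 each; -1.14 ± 0.20, adjusted p = 0.000281). Replicate 1 was the highest severe-drought array in these 3 genes, and still below the lowest moderate-drought array. The α-tubulin gene tua4, whose probe set can be shared with relatives, gave 2317, 1504 and 1315 units under severe drought, against 5142, 4451 and 3727 units under moderate drought (-1.40 ± 0.19, adjusted p = 2.92e-05). Other tubulin genes were not called, among them tua6 (0.01 ± 0.15) and tub7 (-0.24 ± 0.19). ADF3, for an actin depolymerizing factor, was not called (0.07 ± 0.11). The falls numbered 4, 4 and 6 without replicate 1, 2 and 3 in turn.

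Expansins loosen walls during growth, and they showed no common direction. Of 10 genes for expansins and related enzymes 3 rose and 4 fell, against 10.1% and 13.8% over all tested probe sets. expB8 gave 533, 799 and 678 units under severe drought, against 301, 331 and 388 units under moderate drought (0.96 ± 0.17, adjusted p = 0.000276). expB4 gave 207, 168 and 186 units under severe drought, against 491, 409 and 363 units under moderate drought (-1.15 ± 0.20, adjusted p = 0.000272). The groups were separate in both, in opposite directions. expA4 (0.80 ± 0.25) and the xyloglucan endotransglycosylase gene xet1 (0.64 ± 0.19) also rose. The other falls were in expB3 (-1.27 ± 0.36), expa2 (-1.05 ± 0.30) and expB7 (-0.74 ± 0.27), all with severe-drought means under the filter level. Many calls here were lost with any of several arrays left out in turn. Only 1 of the 3 rises and 1 of the 4 falls were called in all 6 fits that left out 1 array. The call of expA4 was lost with severe replicate 3 or moderate replicates 1 and 3 left out in turn, adjusted p = 0.051 to 0.103, and that of xet1 with severe replicates 1 and 3 or moderate replicates 1 and 2 left out in turn, adjusted p = 0.0505 to 0.0871. Those of expB3, expa2 and expB7 were lost with severe replicate 2 or moderate replicate 1 left out in turn, adjusted p = 0.052 to 0.0582, with severe replicate 3 or moderate replicate 1 left out in turn, adjusted p = 0.0619 to 0.0776 and with severe replicates 1, 2 and 3 or moderate replicates 1 and 2 left out in turn, adjusted p = 0.0583 to 0.172. Expansins and their relatives gave 3, 1 and 1 rises and 2, 2 and 3 falls without replicate 1, 2 and 3 in turn.

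Of 13 tested genes of cell division and DNA replication 4 fell and 0 rose, against 13.8% that fell over all tested probe sets, and the median was 0.04. The falls were in the linker histone genes his1 (-1.08 ± 0.19) and his1a (-0.87 ± 0.19), in the centromere histone gene cenH3 (-0.54 ± 0.19) and in MCM6, a subunit of the replicative helicase (-1.49 ± 0.30). his1a averaged 2577 ± 704 units under severe drought, against 4596 ± 373 units under moderate drought (SD, n = 3 each; adjusted p = 0.00198), with no overlap of the groups. MCM6 gave 0.662, 3.202 and 2.68 units under severe drought, against 13.2, 11.04 and 19.1 units under moderate drought, all far under the filter level, so its fold has little meaning as a size. The call of cenH3 was lost with severe replicates 1 and 2 or moderate replicates 1, 2 and 3 left out in turn, adjusted p = 0.0609 to 0.166. pcna1, for the sliding clamp of DNA replication, was not called (0.06 ± 0.13), nor was the cyclin gene cycD2 (0.23 ± 0.15). The list gave 3, 2 and 3 falls without replicate 1, 2 and 3 in turn.

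The lignin pathway starts with phenylalanine ammonia-lyase. Its gene pal3 gave 1587, 1915 and 1864 units under severe drought, against 4237, 4217 and 4664 units under moderate drought (-1.29 ± 0.15, adjusted p = 2.78e-06), so the groups were more than 2000 units apart. ccr2, for a cinnamoyl-CoA reductase, gave 15.4, 10.9 and 5.35 units under severe drought, against 54.1, 51.1 and 34.1 units under moderate drought (-1.79 ± 0.28, adjusted p = 0.0001), below the filter level in both groups. Of 5 genes of the pathway these 2 fell and 0 rose (median -0.69), against 13.8% and 10.1% over all tested probe sets. 4CL, for 4-coumarate CoA ligase (0.02 ± 0.21), and cncr1, another cinnamoyl-CoA reductase gene (0.01 ± 0.17), were not called, nor was CAD2, for cinnamyl alcohol dehydrogenase (-0.69 ± 0.27). Without replicate 1, 3 genes fell, CAD2 among them (adjusted p = 0.0196), and 2 fell without replicate 2 and without replicate 3. CAD2 was also called with replicate numbers as a block (adjusted p = 0.000578) and without severe replicate 1 (adjusted p = 0.0419). For the difference between Ye478 and Han21 in this step, 4 of the 5 genes were called, all but ccr2 (median difference 1.40).

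In the plot of the gene lists, the tested genes of the lists of cellulose synthases, benzoxazinoids, ribosomal proteins and carbon fixation all lie left of zero and those of seed maturation proteins to the right. For the last, the brightness filter favoured that side.

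**Figure D3:**
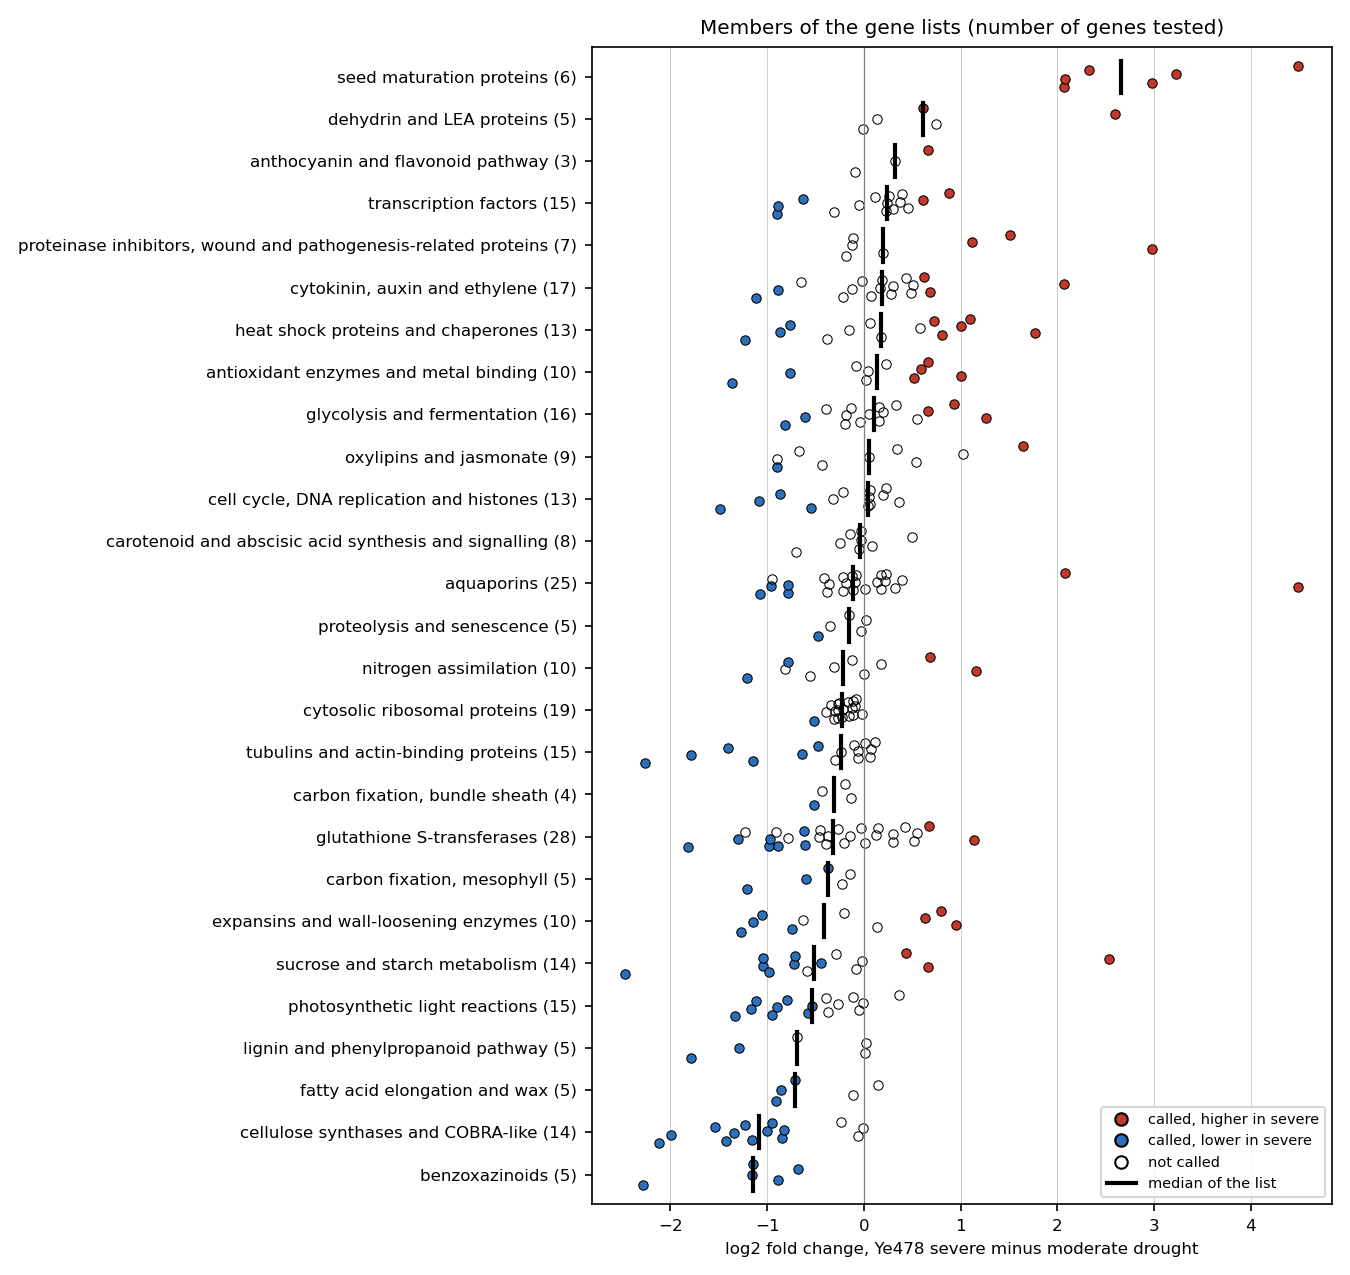
Log2 fold change of severe over moderate drought (x axis) for each tested gene (circle) of the lists (rows, with the number of tested genes), red where called higher, blue where called lower and open where not called, with a black bar at the list's median. Medians run from 2.66 for seed maturation proteins to -1.15 for benzoxazinoids.

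Genes for antenna proteins of the chloroplast, which gather light, were among the falls. Of 15 tested genes of the light reactions 8 fell and 0 rose (median -0.53), against 13.8% and 10.1% over all tested probe sets. lhcb6, an antenna protein gene of photosystem II, gave 1924, 1046 and 1045 units under severe drought, against 4092, 3651 and 2248 units under moderate drought (-1.33 ± 0.23, adjusted p = 0.000231). Lhcb5-2 gave 1788, 1058 and 1091 units under severe drought, against 3209.7, 2961 and 2474 units under moderate drought (-1.17 ± 0.17, adjusted p = 5.83e-05), and its relative Lhcb5-1 changed by -1.11 ± 0.19, adjusted p = 0.000203. In these genes replicate 1 was the brightest severe-drought array, and no severe-drought array reached a moderate-drought one. psad1, for a subunit of photosystem I, averaged 1751 ± 185 units under severe drought, against 3025 ± 199.5 units under moderate drought (SD, n = 3 each; -0.79 ± 0.15, adjusted p = 0.000498). Photosystem genes that were not called included psbs1, a photoprotection gene (-0.05 ± 0.10), and psan1 (-0.26 ± 0.18), and the ferredoxin gene fdx3 was at -0.01 ± 0.09. The summed signal of the 15 genes was 49357 to 60621 units per array in severe drought and 59551 to 77119.9 units in moderate drought, so these ranges overlapped. Light-reaction genes gave 5, 4 and 8 falls without replicate 1, 2 and 3 in turn.

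Of the carbon fixation genes, 3 of 5 of the mesophyll and 1 of 4 of the bundle sheath fell, against 13.8% over all tested probe sets. A difference between the cell types was not tested. Maize first fixes carbon in mesophyll cells and passes it to the bundle sheath. pep1, for the phosphoenolpyruvate carboxylase of the first step, gave 3445, 2502 and 1989 units under severe drought, against 5681, 7027 and 5269.7 units under moderate drought (-1.20 ± 0.26, adjusted p = 0.00184). TPT, for the triose phosphate translocator of the chloroplast envelope, gave 5872, 4025 and 4159 units under severe drought, against 7279, 6895 and 6775 units under moderate drought (-0.60 ± 0.13, adjusted p = 0.00171). The other fall among 5 mesophyll genes was in mdh6, for the NADP malate dehydrogenase (-0.37 ± 0.13, adjusted p = 0.0465). mdh6 lost its call with severe replicates 2 and 3 or moderate replicates 1 and 2 left out in turn, adjusted p = 0.0973 to 0.187, and with median centring (adjusted p = 0.0783). Ppdk1, for pyruvate phosphate dikinase, was bright and not called (-0.14 ± 0.18). Of 4 bundle sheath genes rca1, for Rubisco activase, fell (-0.51 ± 0.15, adjusted p = 0.0157), and its call was lost with severe replicates 2 and 3 or moderate replicates 1 and 3 left out in turn, adjusted p = 0.0505 to 0.0867. ssu1, a small subunit gene of Rubisco (-0.19 ± 0.16), and me3, for NADP malic enzyme (-0.14 ± 0.14), were not called. Medians were -0.37 for the mesophyll genes and -0.31 for the bundle sheath genes. Mesophyll genes gave 2, 1 and 2 falls and bundle sheath genes 1, 0 and 0 without replicate 1, 2 and 3 in turn. With the replicate block 2 bundle sheath genes fell.

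Lipid genes of the chloroplast and the cuticle fell in part. Of 5 genes of fatty acid elongation, wax and plastid fatty acid desaturation 3 fell and 0 rose (median -0.71), against 13.8% and 10.1% over all tested probe sets. gl1, a glossy gene of the leaf wax, gave 92.7, 96.0 and 111 units under severe drought, against 167, 193 and 192 units under moderate drought (-0.86 ± 0.19, adjusted p = 0.00234). FAD8 (-0.71 ± 0.16, adjusted p = 0.00271) and fad7 (-0.90 ± 0.25, adjusted p = 0.0101) encode desaturases that make trienoic fatty acids in plastids. fad7 lost its call with severe replicate 2 or moderate replicate 1 left out in turn, adjusted p = 0.053 to 0.0844. gl8, another glossy gene (0.15 ± 0.12), and fae1, for a fatty acid elongase (-0.11 ± 0.28), were not called. The falls were 3, 1 and 3 without replicate 1, 2 and 3 in turn, and without replicate 2 the adjusted p of gl1 was 0.0847.

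Defence chemistry changed in both directions. Benzoxazinoids are the grasses' stored defence compounds, and all 5 measured genes for their synthesis or release fell (median -1.15). Over all tested probe sets 13.8% fell. bx1, for the lyase that makes the first indole, gave 1493, 1396 and 736 units under severe drought, against 5973, 6698 and 4485 units under moderate drought (-2.29 ± 0.24, adjusted p = 1.06e-06). igl1, which encodes the related lyase that frees indole as a volatile, gave 209, 224 and 191 units under severe drought, against 336, 312 and 360.2 units under moderate drought (-0.68 ± 0.14, adjusted p = 0.00105). bx6, for a later oxidation step, averaged 259 ± 58.3 units under severe drought, against 575 ± 27.6 units under moderate drought (SD, n = 3 each; -1.16 ± 0.21, adjusted p = 0.000339). The β-glucosidase genes glu2 (-0.89 ± 0.19, adjusted p = 0.0017) and glu1 (-1.15 ± 0.32, adjusted p = 0.0128), whose products release the active compounds, fell as well. glu1 lost its call with severe replicate 3 or moderate replicate 1 left out in turn, adjusted p = 0.0616 to 0.0821. Benzoxazinoid genes gave 5, 4 and 4 falls without replicate 1, 2 and 3 in turn.

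Some wound and pathogen genes rose. wip1, for a wound-induced Bowman-Birk proteinase inhibitor, gave 2195, 1928 and 2332 units under severe drought, against 269, 289 and 248 units under moderate drought (2.98 ± 0.32, adjusted p = 1.78e-06). chn1, for a chitinase, gave 9883, 9760.0 and 8767 units under severe drought, against 2842, 3137 and 4073 units under moderate drought (1.51 ± 0.29, adjusted p = 0.000702). psei7, for a cystatin, which inhibits cysteine proteases, gave 860.1, 981 and 1480.5 units under severe drought, against 515, 457 and 505 units under moderate drought (1.12 ± 0.19, adjusted p = 0.000263). The groups of each were well apart, wip1 most of all. These 3 were the called genes among 7 proteinase inhibitors and wound or pathogenesis-related proteins (3 rose, 0 fell, median 0.20, and 3, 3 and 3 rose without replicate 1, 2 and 3 in turn). Over all tested probe sets 10.1% rose. The pathogenesis-related genes pr5 (-0.19 ± 0.45) and prp4 (-0.11 ± 0.65) and the cystatin genes psei1 (0.20 ± 0.16) and psei2 (-0.12 ± 0.20) were not called, and prp4 passed the filter only through the severe-drought arrays. Of 9 genes of oxylipin synthesis, the pathway to jasmonate, 1 rose and 1 fell (median 0.05), against 10.1% and 13.8% over all tested probe sets. lox3, a lipoxygenase gene, gave 424, 548 and 629 units under severe drought, against 125, 154 and 231 units under moderate drought (1.65 ± 0.31, adjusted p = 0.000618). opr5, of the 12-oxophytodienoate reductase family, gave 1686, 1472 and 1242 units under severe drought, against 2934, 2784 and 2463 units under moderate drought (-0.90 ± 0.16, adjusted p = 0.000343). aos1, for allene oxide synthase (0.54 ± 0.29), and opr1 (1.03 ± 0.43) were not called. The adjusted p was 0.00579 for aos1 with replicate numbers as a block, and 0.00511 for opr1 fitted to the compared groups alone. With the block 2 genes of the list rose and 2 fell.

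Nitrogen assimilation moved gene by gene. Of 10 genes 2 rose and 2 fell (median -0.21), against 10.1% and 13.8% over all tested probe sets. gln2, a glutamine synthetase gene, gave 364, 259 and 289.9 units under severe drought, against 165, 73.7 and 189 units under moderate drought (1.16 ± 0.28, adjusted p = 0.00471). GLN6, of the same family, gave 992, 767 and 742 units under severe drought, against 1682, 1126 and 1533 units under moderate drought (-0.78 ± 0.16, adjusted p = 0.00152). So one member was higher on every severe-drought array and another lower. NIR, for nitrite reductase, averaged 1425 ± 251 units under severe drought, against 887 ± 174 units under moderate drought (SD, n = 3 each; 0.68 ± 0.20, adjusted p = 0.0141). gln3, a further glutamine synthetase gene, fell at signals under the filter level in both groups (-1.21 ± 0.38, adjusted p = 0.0238). NIR lost its call with severe replicate 3 or moderate replicates 1 and 2 left out in turn, adjusted p = 0.0605 to 0.0804, and gln3 with severe replicates 1 and 2 or moderate replicate 1 left out in turn, adjusted p = 0.0648 to 0.159. asn1, for asparagine synthetase, which stores nitrogen, gave 12458, 13440.1 and 10472 units under severe drought, against 11062, 11281 and 9619 units under moderate drought and was not called (0.18 ± 0.19). NNR1, for nitrate reductase, was not called (-0.55 ± 0.26), but its adjusted p was 0.0438 without replicate 1. Among 5 protease genes of senescence 1 was called (median -0.16), against 23.9% over all tested probe sets. That gene, see2b, for a vacuolar protease, fell (-0.48 ± 0.13, adjusted p = 0.0113), a call lost without severe replicate 2 (adjusted p = 0.0633). ccp1, a cysteine protease gene, was not called (0.03 ± 0.19). Nitrogen genes gave 2, 0 and 2 rises and 2, 1 and 1 falls, and protease genes 1, 0 and 1 falls without replicate 1, 2 and 3 in turn. Without replicate 2 the adjusted p was 0.12 for gln2, 0.231 for NIR and 0.225 for see2b, and without replicate 3 it was 0.0554 for GLN6. With the replicate block 2 protease genes fell.

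Abscisic acid genes gave no calls at this step. Of 8 tested genes for the making and sensing of carotenoids and abscisic acid 0 were called by limma, against 23.9% over all tested probe sets. The median was -0.04. The unadjusted p was under 0.05 for 1 of them, psy2, for phytoene synthase (-0.71 ± 0.34, unadjusted p = 0.0483), whose arrays overlapped between the groups. With replicate numbers as a block 1 of the 8 was called. vp14, for the dioxygenase that limits abscisic acid synthesis, gave 360.3, 428 and 533 units under severe drought, against 361, 381 and 503 units under moderate drought (0.08 ± 0.29). GBF1, a bZIP factor that binds G-box elements, gave 1054, 1338 and 1226 units under severe drought, against 1015, 1217 and 1554 units under moderate drought (-0.05 ± 0.18), and PP2C, a protein phosphatase gene, was at -0.15 ± 0.18. In each the groups overlapped. Among 17 genes of cytokinin, auxin and ethylene 3 rose and 2 fell (median 0.19), against 10.1% and 13.8% over all tested probe sets. ciszog1 encodes an enzyme that stores the cytokinin cis-zeatin as a glucoside, and it gave 879.7, 1068 and 1467 units under severe drought, against 212, 250.2 and 339 units under moderate drought (2.07 ± 0.22, adjusted p = 1.15e-06). The response regulator gene RR8 (0.62 ± 0.19, adjusted p = 0.0183) and ACO31, of the ACC oxidase family that makes ethylene (0.68 ± 0.23, adjusted p = 0.0354), also rose, while the regulator gene RR11 (-1.11 ± 0.29, adjusted p = 0.00718) and the auxin carrier gene aux1 (-0.89 ± 0.31, adjusted p = 0.0418) fell. RR8 lost its call with severe replicate 3 or moderate replicates 1 and 2 left out in turn, adjusted p = 0.0597 to 0.104, and ACO31 with severe replicates 2 and 3 or moderate replicates 2 and 3 left out in turn, adjusted p = 0.0784 to 0.172. aux1 lost it with severe replicates 1, 2 and 3 or moderate replicates 1, 2 and 3 left out in turn, adjusted p = 0.0549 to 0.168. The ethylene receptor gene etr2 was not called (0.30 ± 0.16). The hormone list gave 2, 1 and 3 rises and 0, 2 and 1 falls without replicate 1, 2 and 3 in turn. The adjusted p of RR11 without replicate 1 was 0.0966. With the replicate block 5 rose and 2 fell.

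Of 15 tested transcription factor genes 2 rose and 3 fell (median 0.24), shares close to the 10.1% and 13.8% over all tested probe sets. Hox1b, a homeobox gene, gave 236, 302 and 262 units under severe drought, against 127, 126 and 178 units under moderate drought (0.88 ± 0.17, adjusted p = 0.00059). rs2, a MYB gene that keeps knotted-type genes off in leaves, gave 253, 307 and 253 units under severe drought, against 428, 455 and 382 units under moderate drought (-0.63 ± 0.12, adjusted p = 0.000537). myb42, a MYB gene, averaged 91.5 ± 9.21 units under severe drought, against 177 ± 53.8 units under moderate drought (SD, n = 3 each; -0.89 ± 0.20, adjusted p = 0.00309). glk1, a regulator of chloroplast development, fell at signals under the filter level in both groups (-0.89 ± 0.20, adjusted p = 0.00278), and OBF1, a bZIP gene, rose (0.62 ± 0.17, adjusted p = 0.0132). The call of OBF1 was lost with severe replicates 1 and 2 or moderate replicate 3 left out in turn, adjusted p = 0.0513 to 0.0555. Without replicate 1 the adjusted p was 0.0518 for myb42 and 0.0851 for glk1, and without replicate 2 it was 0.0814 for Hox1b. The transcription factors gave 1, 0 and 3 rises and 1, 3 and 3 falls without replicate 1, 2 and 3 in turn. DREB2A, of a family of dehydration-response factors, had 346, 432 and 432 units under severe drought, against 333, 285 and 299 units under moderate drought and was not called (0.39 ± 0.20), though its groups did not overlap.

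Among genes of glycolysis and fermentation, adh1 and pdc2 of the fermentation branch rose and adh2 fell. Of 16 tested genes 3 rose and 2 fell (median 0.11), against 10.1% and 13.8% over all tested probe sets. adh1, for alcohol dehydrogenase, gave 2230.1, 2329 and 2423 units under severe drought, against 1294, 1035 and 1334 units under moderate drought (0.94 ± 0.20, adjusted p = 0.00145), and pdc2, for pyruvate decarboxylase, gave 336, 209 and 245 units under severe drought, against 146, 71.1 and 112 units under moderate drought (1.26 ± 0.34, adjusted p = 0.0093). pdc2 lost its call without moderate replicate 2 (adjusted p = 0.0633). frk1, for fructokinase, rose by 0.66 ± 0.14, adjusted p = 0.00214. The falls were in gpb1, a chloroplast glyceraldehyde-3-phosphate dehydrogenase gene (-0.61 ± 0.14, adjusted p = 0.00346), and adh2 (-0.81 ± 0.27, adjusted p = 0.034), which lost its call with severe replicate 3 or moderate replicates 1 and 2 left out in turn, adjusted p = 0.0709 to 0.175. The cytosolic gene GPC1 was not called (0.05 ± 0.14). Of 19 genes for ribosomal proteins of the cytosol 1 was called, against 23.9% over all tested probe sets, and the median was -0.23. That gene, rpp2a-3, fell (-0.51 ± 0.18, adjusted p = 0.0451), and its call was lost with severe replicates 2 and 3 or moderate replicates 1 and 2 left out in turn, adjusted p = 0.0669 to 0.194. Ribosomal protein genes gave 0, 0 and 4 falls without replicate 1, 2 and 3 in turn, and 7 with the replicate block. Glycolysis and fermentation gave 3, 1 and 2 rises and 2, 1 and 1 falls when the same replicates were left out. In the short flavonoid list a2, for anthocyanidin synthase, rose (0.66 ± 0.15, adjusted p = 0.00312), 1 of 3 genes.

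Of the remaining genes among the 15 largest changes each way, several belong to no list. hmt1, for a homocysteine S-methyltransferase, which makes methionine, gave 1238, 1100.4 and 1135 units under severe drought, against 394, 523 and 440.2 units under moderate drought (1.36 ± 0.16, adjusted p = 4.59e-06). mrpa1, for a transporter of the multidrug-resistance-associated family, gave 1227, 1032 and 1407 units under severe drought, against 389.7, 469 and 777 units under moderate drought (1.21 ± 0.29, adjusted p = 0.00443), and its adjusted p without replicate 1 was 0.0919. sat1 gave 4044, 4096 and 4761 units under severe drought, against 562, 595 and 883 units under moderate drought (2.68 ± 0.22, adjusted p = 1.01e-07), and sip1 averaged 641 ± 68.8 units under severe drought, against 256 ± 24.012 units under moderate drought (SD, n = 3 each; 1.31 ± 0.17, adjusted p = 1.31e-05). Among the falls, por1, listed as a porin, gave 278, 262 and 167 units under severe drought, against 566, 559 and 490.0 units under moderate drought (-1.21 ± 0.21, adjusted p = 0.000334) and lim1 averaged 298 ± 68.1 units under severe drought, against 676 ± 127 units under moderate drought (SD, n = 3 each; -1.18 ± 0.18, adjusted p = 8.14e-05). By the rule that picked them the groups do not overlap in any of these genes. In all, 72 named genes met these conditions for a rise and 82 for a fall. In probe sets without a gene name the numbers were 756 and 682. The largest of these rises were Zm.10386.1.A1_a_at, with 1890.3, 2516 and 2962 units under severe drought, against 186, 208 and 207 units under moderate drought (3.56 ± 0.25), and Zm.8822.2.A1_at, at 3.53 ± 0.30. The largest falls were Zm.3427.1.A1_at, with 380.2, 141 and 174 units under severe drought, against 2202, 2542 and 1003 units under moderate drought (-3.05 ± 0.30), and Zm.6763.3.A1_at, at -2.94 ± 0.30.

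Set against the other stages of Ye478, 2 kinds of course are given, shown in the plot of signal over the 4 conditions. The rules that picked the genes set both kinds. For the first, they were uncalled list genes with little change at this step and the largest changes from control to moderate drought. For the second, they were genes among the 15 largest rises or falls that changed less than 2-fold from control to moderate drought. The genes were picked after their values were seen, and the steps share the moderate-drought or severe-drought arrays, so the values are given side by side without a test. In the first kind most of the change lay between control and moderate drought. GBF1 averaged 150.4 ± 26.9 units in control, 1262 ± 272 in moderate drought, 1206 ± 143 in severe drought and 330.2 ± 32.7 after re-watering (SD, n = 3 each). asn1 averaged 1016 ± 21.4, 10654 ± 903, 12123 ± 1512 and 6875 ± 476 units in the same order. expa1, an expansin gene, had 2571 ± 146 units in control, 85.2 ± 67.4 in moderate drought, 72.3 ± 15.9 in severe drought and 6126 ± 829 after re-watering. The drought means of expa1 lay near the filter level in both conditions. The fatty acid elongase gene fae1 and gpc3, for cytosolic glyceraldehyde-3-phosphate dehydrogenase, had the same course, with changes of moderate drought over control of -4.91 ± 0.28 and -4.51 ± 0.31 and further changes of -0.11 ± 0.28 and -0.39 ± 0.31.

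In the second kind the larger change came with severe drought. tip3b averaged 27.7 ± 2.29 units in control, 52.0 ± 23.7 in moderate drought, 1218 ± 344 in severe drought and 42.5 ± 11.992 after re-watering. Its being bright at only 1 stage of 4 was built into its being tested, since it passed the filter only through the severe-drought arrays. ivr2 averaged 632 ± 101, 1169.9 ± 79.3, 209 ± 25.7 and 2779 ± 527 units in the same order, so the severe-drought low lay between a moderate-drought mean above control and a re-watered mean above both. bx1 averaged 4830.0 ± 1346, 5719 ± 1128, 1208 ± 412 and 1982 ± 187 units, and its re-watered mean remained below the control mean. hmt1 averaged 647 ± 81.7, 452 ± 65.7, 1158 ± 71.6 and 1089 ± 138 units, with a re-watered mean close to that of severe drought. For chn1 the log2 fold change was 0.93 ± 0.29 from control to moderate drought, 1.51 ± 0.29 at the next step and -0.77 ± 0.29 on re-watering, and for tua4 these values were -0.72 ± 0.19, -1.40 ± 0.19 and 1.90 ± 0.19.

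**Figure D4:**
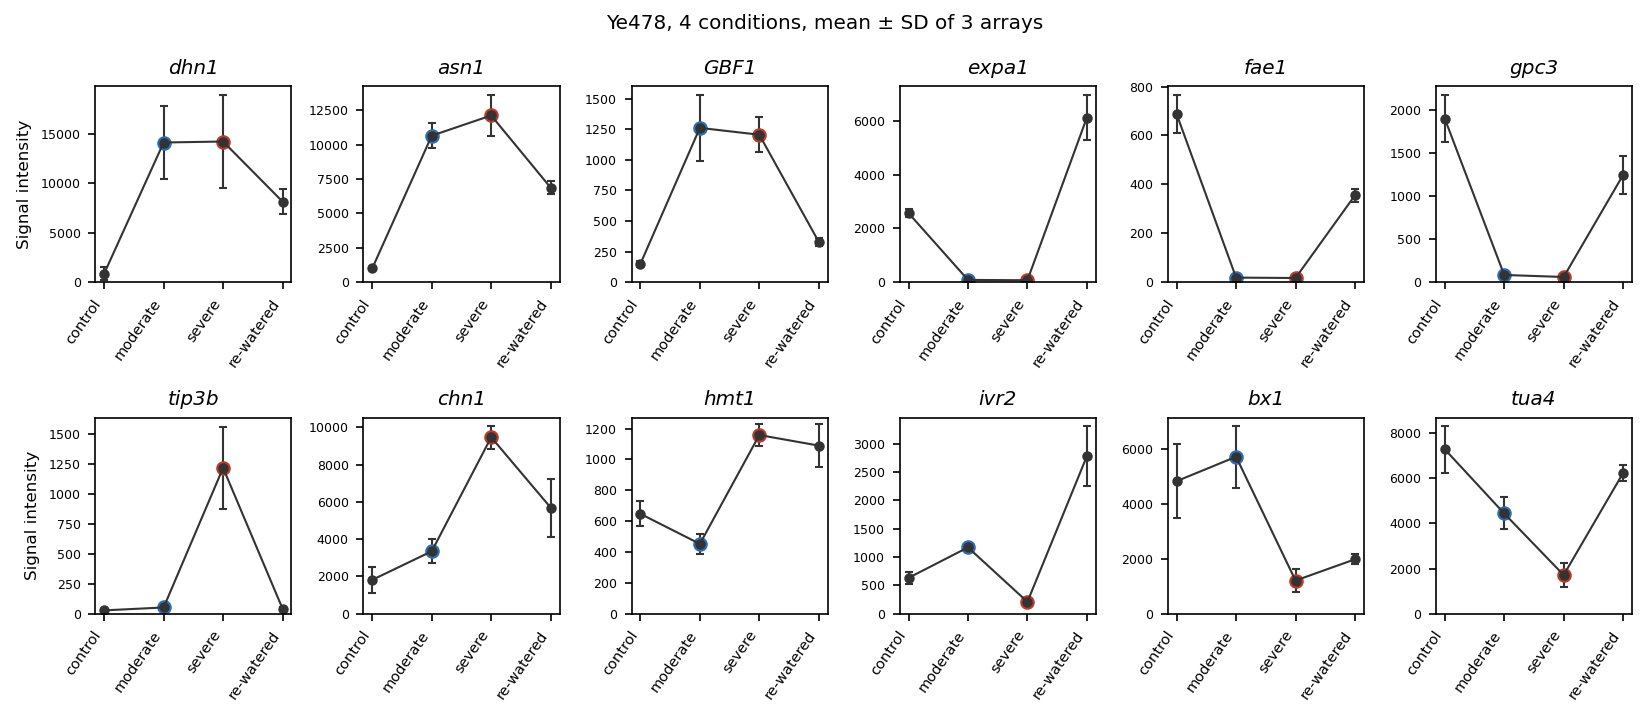
Mean signal intensity with SD (y axis, linear, from 0, n = 3 arrays) of 12 genes in Ye478 over control, moderate drought, severe drought and re-watered plants (x axis). In the top row dhn1, asn1, GBF1, expa1, fae1 and gpc3 differ between control and moderate drought and little between moderate and severe drought, and in the bottom row tip3b, chn1, hmt1, ivr2, bx1 and tua4 differ more between moderate and severe drought than between control and moderate drought. The rules that picked the genes set this contrast of the rows. Levels can differ again on re-watering, by 6.33 ± 0.49 on the log2 scale for expa1 and 3.70 ± 0.16 for ivr2.

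Whether the step was particular to Ye478 was tested as the difference between its change and that of Han21, whose severe-drought and moderate-drought arrays are separate samples. In Ye478 2891 probe sets were called (23.9%) and in Han21 2181 (18.0%), where 915 rose (7.56%) and 1266 fell (10.5%). The difference between the lines was called for 760 probe sets (6.28%), in 423 of which Ye478 had the higher change (3.49%) and in 337 the lower (2.78%). Of the 760, 490 were also called in the Ye478 step. The count depended on the arrays used, at 1513 with replicate numbers as a block (752 higher, 761 lower), at 358 without replicate 1 and at 310 without replicate 3, and it was smallest without replicate 2. Among the genes named by the rules 28 differences are given, and other genes of the lists were called too. Of the 28, 7 were called in every alternative in which they were tested: tip3b, incw1, hmt1, ole1, hsp22, krp6 and mas1. ole1 was not tested at the stricter filter.

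The largest difference was that of the seed channel tip3b. Like ole1 and per-1, tip3b passed the brightness filter only through the severe-drought arrays of Ye478, so a higher change in Ye478 was built into their being tested. In Ye478 it averaged 1218 ± 344 units under severe drought, against 52.0 ± 23.7 units under moderate drought, and in Han21 18.2 ± 9.07 units under severe drought, against 15.2 ± 3.77 units under moderate drought (SD, n = 3 each). Its change was 4.49 ± 0.34 in Ye478 and 0.15 ± 0.34 in Han21, a difference of 4.34 ± 0.48 (adjusted p = 1.05e-05). ole1 rose in Ye478 and moved the other way in Han21 (2.33 ± 0.39 and -1.28 ± 0.39, difference 3.61 ± 0.55, adjusted p = 0.000311), although its signals in Han21, at 5.15 ± 1.65 units under severe drought, against 20.4 ± 11.5 units under moderate drought, were under the filter level. per-1 changed by 2.98 ± 0.32 and 1.15 ± 0.32 (difference 1.83 ± 0.46, adjusted p = 0.0182). For tip3a, esp1 and glb1 the difference was not called. tip3a changed by 2.08 ± 0.54 in Ye478 and 3.73 ± 0.54 in Han21, a difference with a 95% confidence interval from -3.26 to -0.05. esp1 changed by 3.23 ± 0.58 and 4.59 ± 0.58 (interval from -3.07 to 0.35), and glb1 by 2.07 ± 0.47 and 1.78 ± 0.47 (interval from -1.10 to 1.68). incw1 changed by 2.53 ± 0.21 and 0.55 ± 0.21 (difference 1.98 ± 0.30, adjusted p = 0.000291). hmt1 had changes of opposite sign, 1.36 ± 0.16 in Ye478 and -0.78 ± 0.16 in Han21, and so did hsp22, with 1.01 ± 0.20 and -1.09 ± 0.20 (differences 2.13 ± 0.23 and 2.10 ± 0.28, adjusted p = 7.73e-06 and 6.81e-05).

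Some genes were called for the line difference though they were not called in Ye478. krp6, for a kinesin-related protein, averaged 72.4 ± 14.6 units under severe drought, against 66.3 ± 13.1 units under moderate drought in Ye478, and 66.6 ± 15.5 units under severe drought, against 405 ± 39.6 units under moderate drought in Han21 (SD, n = 3 each; difference 2.66 ± 0.31, adjusted p = 1.64e-05). expa1 likewise was at 0.13 ± 0.49 in Ye478 and -2.89 ± 0.49 in Han21 (difference 3.02 ± 0.70, adjusted p = 0.0111), with Ye478 drought means near the filter level. Without replicate 2 or 3 of every group the adjusted p of this difference was 0.214 or 0.169. mas1, for malate synthase of the glyoxylate cycle, was at -0.24 ± 0.24 in Ye478 and 1.59 ± 0.24 in Han21 (difference -1.83 ± 0.33, adjusted p = 0.00192). Where Ye478 had the lower change, cat2 changed by -1.36 ± 0.20 and 0.10 ± 0.20 (difference -1.47 ± 0.29, adjusted p = 0.00332, and 0.0661 without replicate 1), CAT3 by -0.77 ± 0.17 and 0.36 ± 0.17, and GLN6 by -0.78 ± 0.16 and 0.48 ± 0.16. The adjusted p of the CAT3 difference was 0.223 without replicate 2 and 0.0603 without replicate 3. That of the GLN6 difference was 0.0536 without replicate 2. bk2 fell in both lines, less in Ye478 (-1.54 ± 0.19 and -3.16 ± 0.19, difference 1.63 ± 0.27, adjusted p = 0.000693, and 0.0814 without replicate 2). Its severe-drought mean in Ye478 was under the filter level. The difference was 1.73 with 4 times the constant and 1.57 with none. The plot of both changes with their confidence intervals sets Ye478 beside Han21 for these genes.

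**Figure D5:**
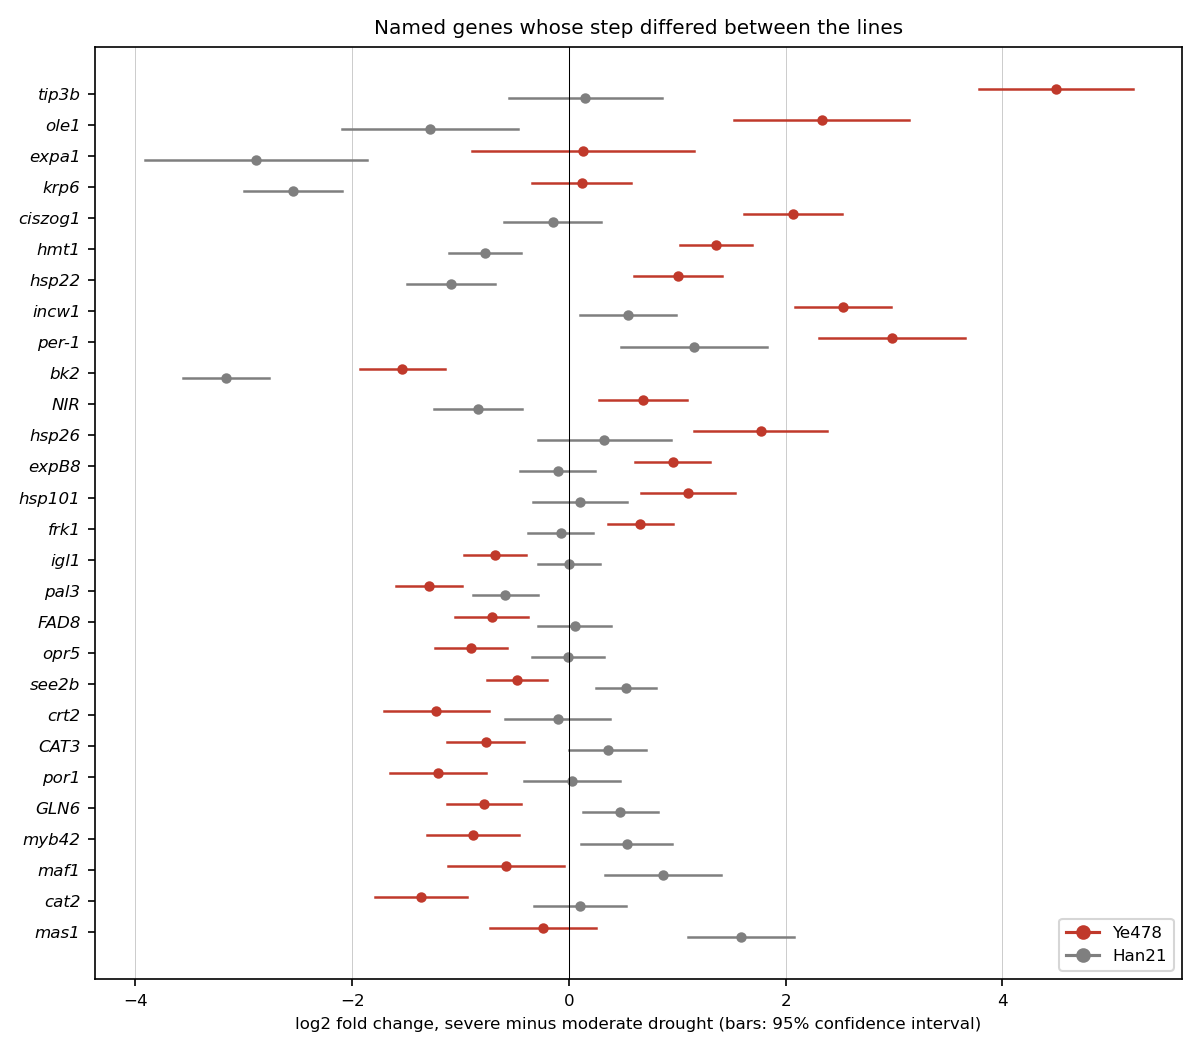
Log2 fold change of severe over moderate drought with its 95% confidence interval (x axis) in Ye478 (red, upper) and Han21 (grey, lower) for 28 named genes whose change differed between the lines, ordered by the difference (y axis). tip3b is at the top with 4.49 in Ye478 and 0.15 in Han21, and mas1 at the bottom with -0.24 and 1.59.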

How the data were processed

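Shoot RNA of 24 arrays, 3 in each of 8 groups, had been hybridised to the Affymetrix maize array. The authors' deposited values are linear signal intensities, made with GCOS and MAS5 per the submitters' processing notes, whose versions are not given in the sources used here. The 2% trimmed mean was 500.1 to 500.2 on every array, and the median 154.4 to 192.9. Depth has no meaning for arrays, and their number limits the precision.

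The 113 control probe sets were left out. The constant 4.58, the 10th percentile of all values, was added before log2, so changes of dim genes are understated. Probe sets above the 40th percentile (72.6 to 106.8 units) on at least 3 arrays were tested (12111), and 5510 were not. A further effect of this filter is that 117 tested probe sets passed it only with the severe-drought arrays of Ye478 and 37 only with the moderate-drought ones, hsp18c and prp4 of the lists among them. A mean per group was fitted with limma 3.58.1 in R 4.3.3 (eBayes with trend, 16 residual and 5.02 prior degrees of freedom), and p-values were adjusted by Benjamini-Hochberg over all tested probe sets at 0.05. The fit was tested on simulated data. Tables and figures used Python 3.11.15, pandas 2.3.3, numpy 2.4.6 and matplotlib 3.10.9.

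Genes were named from the platform annotation and a RefSeq table (assembly Zm-B73-REFERENCE-NAM-5.0). Of 1108 genes 1060 were found in that table and 960 had an informative name, and 1 probe set with several genes was not named. Each gene is represented by its tested probe set with the highest mean. Probe sets ending in _s_at, _x_at or _a_at can also read relatives, as for tua4, his1 and mtl2. The members and lists were chosen with earlier results of these data known. Named were the 15 largest rises and falls among called genes with separate groups and a higher mean at or above the median of 415.1 units, up to 4 called genes of each list by adjusted p with uncalled members beside them, the 4 largest line differences each way, and 4 probe sets without a gene name. The called genes adh2, aux1, bip1, bt2, expA4, expB7, fer2, GBSSIIa, glu1, gss1, gst5, hsp18a, hsp18f, HSP60-1, Lsi6, mtl2, OBF1, sh1, sus2, tip4a, xet1 and zpu1, the uncalled genes of the stage plot, and psy2 were chosen after their values were seen.

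Samples with the same replicate number deviated together, at r = 0.554, 0.373 and 0.413 for the pairs of Ye478 and 0.638, 0.214 and 0.363 for those of Han21, all above 0.1, so the numbers were taken to pair the samples. The calls and standard errors of the main fit left this pairing out, and only the replicate block used it. With the block 4048 probe sets were called against 2891, and 1513 line differences against 760. Alternatives were quantile normalization, median centring, other filters and constants, eBayes without trend, fits of fewer groups, a replicate block, other probe sets of a gene, and leaving out replicates or single arrays.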

Additional observations from a re-analysis of the deposited data

Results flagged for a closer look

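For 28 of the genes named by the rules, the step from moderate to severe drought differed between the lines by limma's contrast of Ye478 over Han21. The difference in log2 fold change is given for each. Other genes of the lists were called for this difference too and are not among the 28. In the lignin list 4 of 5 genes were called (median difference 1.40), of which only pal3 is given here. In the tubulin and actin-binding list 4 of 15 were called, none of them given here, against 6.28% over all tested probe sets. No explanation was tested. tip3b, ole1 and per-1 passed the brightness filter only through the severe-drought arrays of Ye478, so a higher change in Ye478 was built into their being tested. The gene with the largest difference was tip3b (4.34), followed by ole1 (3.61), expa1 (3.02) and krp6 (2.66), all with a higher change in Ye478. ciszog1 (2.22), hmt1 (2.13), hsp22 (2.10) and incw1 (1.98) came next. Their call was kept in every alternative run for hmt1, hsp22 and incw1, and ciszog1 missed it without replicate 2 (adjusted p = 0.0502).

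Among genes that rose in Ye478, the difference was 1.83 for per-1, 1.52 for NIR, 1.44 for hsp26, 1.06 for expB8, 1.00 for hsp101 and 0.73 for frk1. Without replicate 2 of every group the difference of expB8 was 0.61 (adjusted p = 0.36), and the adjusted p of NIR was 0.0963. The calls of per-1, hsp26, hsp101 and frk1 were lost when single arrays were left out, for example severe replicate 1 of Ye478 for per-1 (adjusted p = 0.0536), for hsp26 (adjusted p = 0.0711) and for frk1 (adjusted p = 0.0763), and severe replicate 2 of Ye478 for hsp101 (adjusted p = 0.138). Over the alternatives the adjusted p of hsp101 ran from 0.00588 to 0.593 and that of hsp26 from 0.00494 to 0.446. bk2, which fell in both lines, differed by 1.63.

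Ye478 had the lower change in mas1 (-1.83), cat2 (-1.47), maf1 (-1.45), myb42 (-1.42), GLN6 (-1.26), por1 (-1.24), CAT3 (-1.13) and crt2 (-1.12). The remaining differences were -1.01 for see2b, -0.89 for opr5, -0.77 for FAD8, -0.71 for pal3 and -0.68 for igl1. The calls of crt2, opr5, FAD8, pal3 and igl1 were also lost with any of several single arrays left out. Over the alternatives the adjusted p ran from 0.0139 to 0.46 for crt2, 4.19e-05 to 0.384 for opr5, 0.0152 to 0.395 for FAD8, 0.0197 to 0.272 for pal3 and 0.0145 to 0.29 for igl1. Leaving out severe replicate 3 of Ye478 gave por1 an adjusted p of 0.0522, and leaving out moderate replicate 2 of Han21 gave maf1 0.0583.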

How the results depend on the processing

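No called result changed direction in any alternative run. The medians of 3 lists, all close to zero, changed sign, that of the abscisic acid genes in 2 alternatives, of the cell cycle genes in 9 and of the oxylipin genes in 6. The count of 2891 called probe sets for severe over moderate drought in Ye478 ranged from 2186 to 2915 over other scalings, filters, constants and samples in the fit, and was 4048 with the replicate block, in which all 2891 were called in the same direction. Leaving out replicates or single arrays gave 1008 to 2747 called probe sets, 382 to 1233 higher and 626 to 1551 lower. The lowest counts came without replicate 2, and the cause was not tested. For the difference between the lines (760), these omissions gave 123 to 745, with 99 to 390 higher and 24 to 365 lower in Ye478. The replicate block gave 1513 (752 higher, 761 lower), and a fit of the compared groups alone 205 lower. Of 115 called genes and probe sets that are named, 60 were called in every alternative in which they were tested, 13 of the 115 having been removed by the filter at the 60th percentile, and of 50 named uncalled genes 11 were called in at least 1. Quantile normalization alone lost the calls of 7, namely adh2, aux1, cenH3, expB7, hsp18f, Lsi6 and zpu1. Median centring alone lost those of expB7, hsp18f and mdh6. With 3 arrays a group and shared drought in both groups, differences smaller than the spread of these arrays could not be detected, and probe sets near the filter level give a direction rather than a size.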
